A study of Homo sapiens with 4 samples.

Results

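Transcript levels of 9 tight junction genes were followed in cells labelled A549 after transfection of small interfering RNA against DLX6, which encodes a homeobox transcription factor. The genes were 4 claudins (CLDN1, CLDN2, CLDN4 and CLDN12), the junctional scaffolds TJP1 and TJP3, occludin (OCLN), the adhesion molecule JAM-A (F11R) and cingulin (CGN). They were taken by symbol from a list chosen with earlier results of these data known. Each of the 9 matched 1 of the 51136 rows of the deposited table. CLDN1, F11R and TJP3 rose in the si-DLX6 libraries, by 2.18-, 1.63- and 5.25-fold in mean FPKM, and CLDN1 kept that call whichever library was left out. TJP3 was testable only through the si-DLX6 libraries, the group where it is high. TJP1, higher, and CGN, lower, had groups that did not overlap but did not pass the test. Of all tested genes, 35.1% had both si-DLX6 libraries above both si-control libraries, and 27.9% had both below. CLDN12 and OCLN overlapped between the groups, and CLDN2 and CLDN4 were too low to be tested.

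The comparison set 2 si-DLX6 libraries against 2 si-control libraries, all of unedited (wild-type) cells given serum-containing medium. A549 is an established human lung adenocarcinoma line. All 4 samples also carry a treatment entry naming adipogenic differentiation, which neither the sample titles nor the treatment protocol mention. Whether the libraries came from separate cultures is not in the labels, so p-values measure the spread between libraries, which may be technical. The column names of the si-DLX6 libraries carry SEQ1 and SEQ2. The labels do not say whether these mark different small interfering RNA sequences. A difference of that kind between the si-DLX6 libraries was not tested.

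Tight junctions close the space between neighbouring epithelial cells at the apical end of their lateral membranes. Claudins form the strands, and their mixture sets which ions pass, since some claudins seal and others form pores. Occludin and the junctional adhesion molecules lie beside the strands in the membrane. The zonula occludens proteins, made by the TJP genes, and cingulin lie under the membrane and tie it to actin and myosin.

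The libraries held 10485013 and 10665357 reads in si-DLX6 and 12075285 and 9678221 in si-control, recovered from the steps of the deposited FPKM values (fragments mapped to a gene, scaled by its transcript length and by the library total). DLX6 itself had 0.916 and 0.450 FPKM in the si-DLX6 libraries, against 3.27 and 3.47 FPKM in the si-control libraries. It fell by 1.39 on the log2(FPKM + 1) scale (SE 0.20; limma, Benjamini-Hochberg adjusted p = 0.00859), and its reads stood at 20.3% of the si-control level (exact 95% interval 12.9% to 30.8%). DLX6 reached 1 FPKM only in the si-control libraries, so it had to differ to be tested, and its call was lost with no filter on low values (limma adjusted p = 0.0667). Its row cannot be told apart from the overlapping antisense gene DLX6-AS1 if strand was not used in counting. Of 15504 genes tested, 10.2% were called higher and 9.49% lower (1575 and 1471 genes). Genes above 0 numbered 24931 and 25315 in si-DLX6 libraries against 24039 and 23520 in si-control libraries, and the part of this difference in the results for genes near 0 was not tested. With median-of-ratios scaling the split was 1077 higher and 1814 lower.

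The cell line label was checked against marker genes, of which the first 5 below were chosen after their values were seen. CDKN2A had 21.2 and 23.0 FPKM in si-DLX6 libraries against 22.9 and 19.4 FPKM in si-control libraries, and MTAP had 7.03 and 9.03 FPKM against 11.9 and 15.6 FPKM in si-control. A549 cells are known to lack both genes, which lie side by side. AKR1B10 and ALDH1A1, abundant enzymes of A549 cells, reached at most 0.377 and 0.0805 FPKM in any library, while the mesenchymal filament gene VIM had 1967 and 1793 FPKM in si-DLX6 libraries and 1753 and 1704 FPKM in si-control libraries. The epithelial list, with 6 of 6 genes above 0, summed to 576 and 524 FPKM in si-DLX6 libraries against 614 and 571 FPKM in si-control libraries. KRT18, at 464 and 422 FPKM against 475 and 447 FPKM in si-control, made up most of it. KRT8 had 111 and 100.1 FPKM against 138 and 123 FPKM in si-control. KRT7 had 1.04 and 1.33 FPKM against 0.589 and 0.666 FPKM in si-control. Both were without overlap and neither was called (limma adjusted p = 0.0971 and 0.147). KRT7 reached 1 FPKM only in the si-DLX6 libraries, so it had to differ to be tested. Of all tested genes, 35.1% had both si-DLX6 libraries above both si-control libraries, and 27.9% had both below. E-cadherin (CDH1), which organises epithelial junctions, had 1 read in all 4 libraries together, EPCAM stayed at or below 0.437 FPKM, and the surfactant genes SFTPA1, SFTPB and SFTPC were at 0. The CDKN2A, MTAP, AKR1B10 and ALDH1A1 values therefore go against the cell line label, and the cells are called by that label only.

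Other cell types were followed by marker lists. The leukocyte list summed to 118 and 103 FPKM in si-DLX6 libraries against 69.8 and 64.4 FPKM in si-control libraries, with 3 of 5 genes above 0. Nearly all of it was the lysosomal gene CD68, and PTPRC and CD3E were at 0. The adipocyte list had 5 of 7 genes above 0 and summed to 2.90 and 2.91 FPKM against 1.97 and 2.08 FPKM in si-control, with ADIPOQ and LEP at 0. Fibroblast markers (5 of 6 above 0, LUM at 0) summed to 0.759 and 0.807 FPKM against 0.283 and 0.343 FPKM in si-control. Endothelial markers (3 of 4 above 0, CDH5 at 0) summed to 0.126 and 0.215 FPKM against 0.105 and 0.131 FPKM in si-control. Their part in the results below was not tested, and in such bulk RNA fewer cells of a type and less RNA per cell cannot be told apart.

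**Figure D1:**
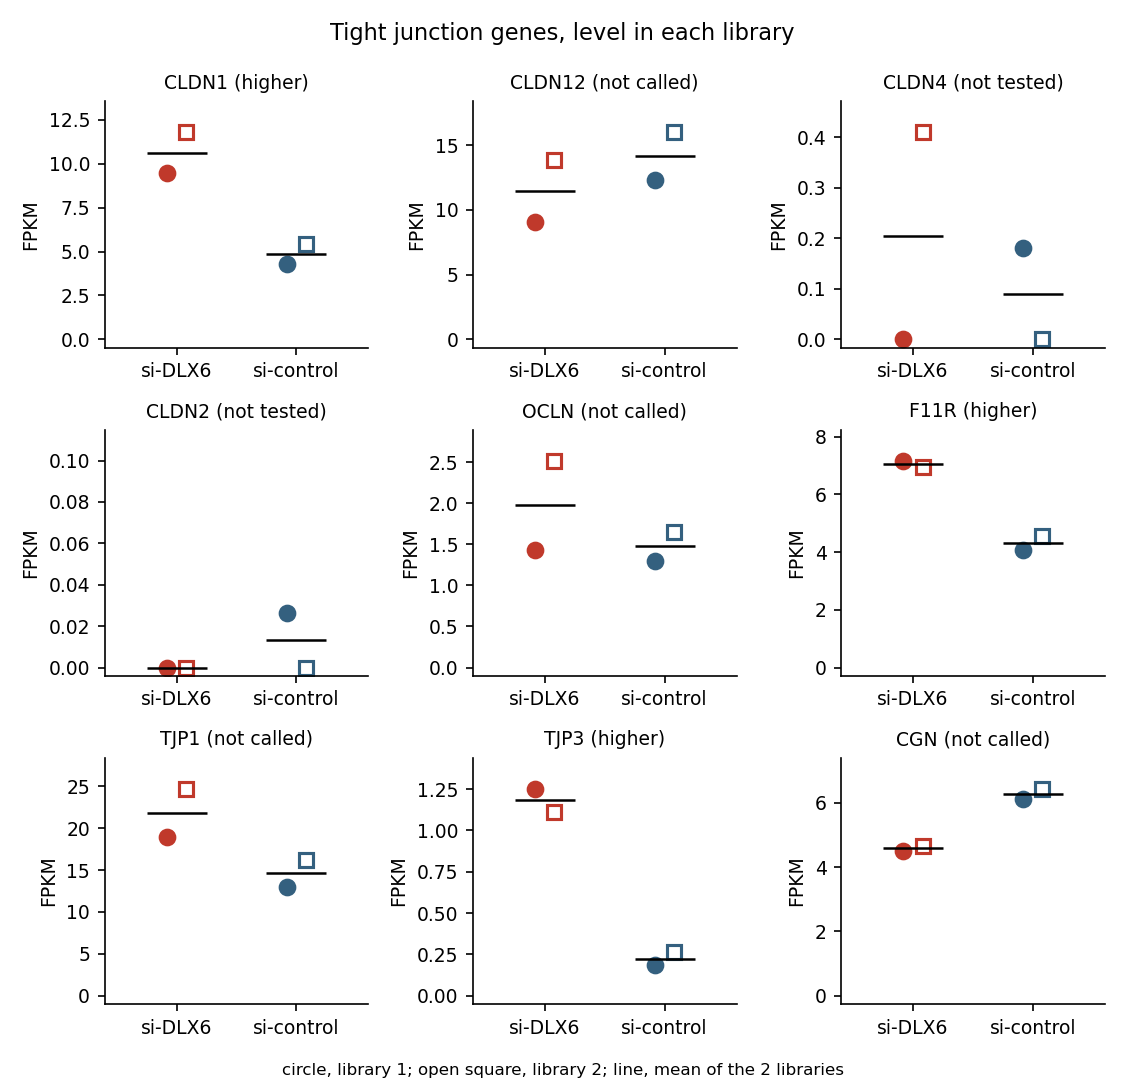
Level in FPKM of each of the 9 tight junction genes in every library, si-DLX6 left of si-control, with 1 point per library. The si-DLX6 points lie above the si-control points for CLDN1, F11R, TJP1 and TJP3 and below them for CGN, and CLDN2 and CLDN4 lie at or near 0.

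CLDN1 encodes claudin-1, a sealing claudin needed for the barrier of the skin. It had 9.48 and 11.8 FPKM in the si-DLX6 libraries, against 4.32 and 5.42 FPKM in the si-control libraries. Both si-DLX6 libraries lay above both si-control libraries, with a gap wider than the distance between libraries of either group. The means were 10.6 ± 1.63 FPKM in si-DLX6 and 4.87 ± 0.777 FPKM in si-control (SD, n = 2 each). CLDN1 was higher by 0.99 on the log2(FPKM + 1) scale (SE 0.17; limma, Benjamini-Hochberg adjusted p = 0.0138 over all 15504 genes). The libraries held 343 and 434 reads of it in si-DLX6 and 180 and 181 in si-control, which puts si-DLX6 at 221% of si-control (exact 95% interval 195% to 252%, for counting error only, as all such intervals here). It was called without each library in turn, with log2 changes from 0.84 to 1.13 (limma adjusted p 0.0195 to 0.0459). Testing all 28637 genes above 0 in any library, with no filter on low values, ended the call (limma adjusted p = 0.0770).

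CLDN12 encodes an unusual claudin that lacks the C-terminal motif by which most claudins bind the zonula occludens proteins. It had 9.09 and 13.8 FPKM in si-DLX6 libraries and 12.3 and 16.0 FPKM in si-control libraries. The ranges overlapped, since the second si-DLX6 library lay above the first si-control library. The log2 difference was -0.29 (SE 0.21; limma adjusted p = 0.370). On GRCh38 the gene lies on the plus strand of chromosome 7 at 90383721-90513402 in the GENCODE annotation. It overlaps GTPBP10 and CDK14 on the same strand there, so reads shared with these genes leave its level uncertain.

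CLDN4, a sealing claudin that limits sodium passage in many epithelia, was nearly absent. It had 0 and 0.410 FPKM (0 and 8 reads) in si-DLX6 libraries against 0.181 and 0 FPKM (4 and 0 reads) in si-control libraries. Each group held 1 library with reads and 1 without. CLDN2, the cation pore claudin of leaky epithelia, had 0 reads in both si-DLX6 libraries, against 1 and 0 reads (0.0263 and 0 FPKM) in the si-control libraries. A count of 0 over the si-DLX6 group allows up to 0.0450 FPKM of CLDN2, so no difference was detectable at this depth. Neither gene reached 1 FPKM in any library, and neither was tested.

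The claudins also differed in their start sites. The sequences below run from 250 bases before to 50 bases after the annotated start (RefSeq, GRCh38.p14), 5′ to 3′ on the gene's strand, and are shown because the 2 claudins above 1 FPKM and the 2 near 0 differ in the CpG content of this window. Capitals mark the GC box word GGGCGG or CCGCCC and the E-box word CACCTG or CAGGTG, each searched on both strands. Positions count from the start site, where the first transcribed base is 1.
CLDN1 (chr3:190322397-190322696, minus strand): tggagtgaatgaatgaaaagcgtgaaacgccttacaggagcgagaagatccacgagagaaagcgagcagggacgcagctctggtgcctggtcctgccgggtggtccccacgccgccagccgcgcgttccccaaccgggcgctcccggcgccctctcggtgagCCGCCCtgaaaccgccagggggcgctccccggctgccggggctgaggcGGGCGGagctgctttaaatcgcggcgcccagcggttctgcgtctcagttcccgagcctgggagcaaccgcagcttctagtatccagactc
CLDN12 (chr7:90403211-90403510, plus strand): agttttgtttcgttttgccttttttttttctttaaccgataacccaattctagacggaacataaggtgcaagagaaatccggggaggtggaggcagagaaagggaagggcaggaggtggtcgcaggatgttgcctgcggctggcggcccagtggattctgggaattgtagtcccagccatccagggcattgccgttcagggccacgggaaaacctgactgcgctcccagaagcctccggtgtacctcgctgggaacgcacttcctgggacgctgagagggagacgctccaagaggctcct
CLDN4 (chr7:73830746-73831045, plus strand): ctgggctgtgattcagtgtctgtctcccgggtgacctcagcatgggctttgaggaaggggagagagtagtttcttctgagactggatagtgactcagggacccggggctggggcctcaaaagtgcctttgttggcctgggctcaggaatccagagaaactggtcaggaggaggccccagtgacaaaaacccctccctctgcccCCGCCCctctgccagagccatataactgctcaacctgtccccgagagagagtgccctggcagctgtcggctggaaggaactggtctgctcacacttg
CLDN2, first of 2 starts (chrX:106899914-106900213, plus strand): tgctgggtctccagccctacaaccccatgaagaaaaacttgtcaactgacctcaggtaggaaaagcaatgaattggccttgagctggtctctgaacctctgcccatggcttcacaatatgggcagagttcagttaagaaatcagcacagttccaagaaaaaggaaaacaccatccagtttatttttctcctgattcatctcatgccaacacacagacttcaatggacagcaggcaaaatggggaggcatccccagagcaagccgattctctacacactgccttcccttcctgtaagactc
The observed over expected CpG ratio was 0.92 for CLDN1 and 0.65 for CLDN12, against 0.19 for CLDN4 and 0.06 for the first start of CLDN2 (0.10 for its second start). Over the 35116 promoter windows of the same length the median was 0.58. The expressed pair lay above it and the pair near 0 below it, but the windows were shown for this difference, so it tests nothing. The 4 TJP1 windows ran from 0.32 to 0.96, and windows of the expressed claudins outside the members were not examined. CLDN1 held 2 GC boxes, with first bases at -88 and -40, and CLDN4 held 1 at -47. No GC box was found in the CLDN12 window or in the printed CLDN2 window, and none of the claudin windows held the E-box word. GC boxes occurred in 45.0% of all windows and the E-box word in 20.6%. The homeodomain core TAATTA, which is its own reverse complement, occurred in 4.84% of all windows and in 0 of 14 windows of the 8 members that have an entry.

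The make-up of the claudins differed between the groups. CLDN1 stood at 1.04 and 0.852 times the CLDN12 level per length in si-DLX6 libraries and at 0.352 and 0.339 times in si-control libraries. Of the summed FPKM of all 24 claudin rows, CLDN1 made up 27.3% and 27.1% in si-DLX6 libraries and 14.8% and 15.4% in si-control libraries. CLDN12 made up 26.2% and 31.8% in si-DLX6 libraries against 42.1% and 45.3% in si-control libraries. The groups did not overlap in these 3 quantities, which are not independent, since each holds the called CLDN1 in its numerator or in its sum. CLDN15, a pore-forming claudin of the intestine and not among the 9 genes, was the other large share, at 36.1% and 33.1% in si-DLX6 libraries and 33.8% and 33.1% in si-control libraries. The claudin sum itself overlapped between the groups, at 34.7 and 43.5 FPKM in si-DLX6 libraries against 29.1 and 35.3 FPKM in si-control libraries. With 2 libraries a group, an exact permutation test of such a share cannot go below p = 0.333 (two-sided), and none is given.

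**Figure D2:**
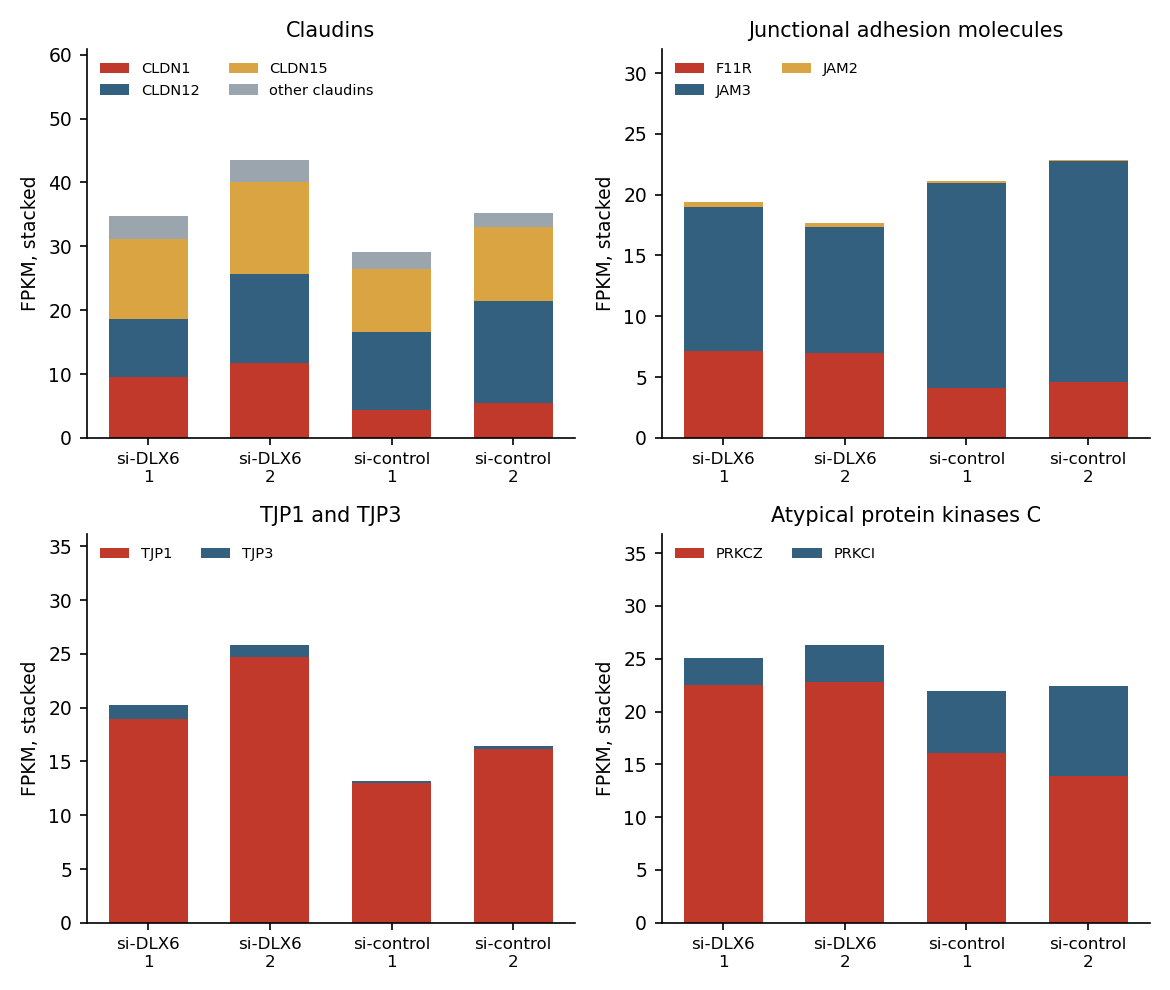
Stacked FPKM of the claudins, the junctional adhesion molecules, the scaffolds TJP1 and TJP3, and the atypical protein kinases C in each library, si-DLX6 left of si-control. CLDN1 takes 27.3% and 27.1% of the claudin sum in si-DLX6 libraries and 14.8% and 15.4% in si-control libraries, and F11R takes 36.9% and 39.3% of the adhesion molecule sum in si-DLX6 libraries and 19.3% and 19.96% in si-control libraries.

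Occludin, a membrane protein with a MARVEL domain that lies along the claudin strands, did not pass the test. OCLN had 1.44 and 2.52 FPKM in si-DLX6 libraries and 1.30 and 1.65 FPKM in si-control libraries. The first si-DLX6 library lay between the si-control libraries. The log2 difference was 0.25 (SE 0.23; limma adjusted p = 0.484). It rested on the second si-DLX6 library, without which it was -0.019 (limma adjusted p = 0.970). Reads stood at 136% of si-control (exact 95% interval 113% to 164%), a range that leaves out the spread between the si-DLX6 libraries of 97 and 173 reads. The annotation also holds a pseudogene copy of the gene, OCLNP1, so reads could have been split between them.

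F11R encodes junctional adhesion molecule A, an immunoglobulin-like membrane protein that recruits the PAR polarity complex to new contacts. It had 7.17 and 6.95 FPKM in si-DLX6 libraries, against 4.08 and 4.56 FPKM in si-control libraries. Both si-DLX6 values lay above both si-control values, and each group was tight. The means were 7.06 ± 0.154 FPKM in si-DLX6 and 4.32 ± 0.336 FPKM in si-control (SD, n = 2 each). F11R was higher by 0.60 on the log2(FPKM + 1) scale (SE 0.14; limma adjusted p = 0.0325), and its reads were at 164% of si-control (exact 95% interval 146% to 185%). The call was lost without any 1 of the 4 libraries (limma adjusted p 0.0918 to 0.143, log2 changes 0.54 to 0.67) and with no filter on low values (limma adjusted p = 0.0855). The gene overlaps AL591806.3 on the same strand.

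JAM3, the related junctional adhesion molecule C, moved the other way. It had 11.8 and 10.4 FPKM in si-DLX6 libraries against 16.9 and 18.2 FPKM in si-control libraries, and fell by 0.62 on the log2 scale (SE 0.12; limma adjusted p = 0.02003). That call was kept in 1 of the 4 fits that left out a library. F11R made up 36.9% and 39.3% of the FPKM of F11R, JAM2 and JAM3 in si-DLX6 libraries and 19.3% and 19.96% in si-control libraries. The sum of these genes was lower in si-DLX6 libraries, at 19.4 and 17.7 FPKM against 21.1 and 22.8 FPKM in si-control libraries, a difference that was not tested.

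TJP1 encodes ZO-1, the scaffold that binds claudins, occludin and actin, and it was the most abundant of the 9 genes per length in both groups by mean. It had 19.0 and 24.7 FPKM in si-DLX6 libraries and 13.0 and 16.2 FPKM in si-control libraries. The groups did not overlap, but the distance between the si-DLX6 libraries was wider than the gap between the groups. The means were 21.8 ± 4.06 FPKM in si-DLX6 and 14.6 ± 2.27 FPKM in si-control (SD, n = 2 each). The log2 difference of 0.55 did not pass the threshold (SE 0.17; limma adjusted p = 0.0661). Its reads, 1581 and 2095 in si-DLX6 libraries and 1247 in each si-control library, stood at 152% of si-control (exact 95% interval 144% to 160%). It passed with limma-voom on the recovered reads (adjusted p = 0.0206), with a filter of 5 FPKM (limma adjusted p = 0.0407), with the replicate number as a block (limma adjusted p = 0.00970) and without the first si-DLX6 library (limma adjusted p = 0.0459).

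TJP3 encodes ZO-3, a scaffold found mainly in epithelial cells. It had 1.25 and 1.11 FPKM in si-DLX6 libraries, against 0.186 and 0.265 FPKM in si-control libraries. Both si-DLX6 libraries lay well above both si-control libraries, from 41 and 37 reads in si-DLX6 against 7 and 8 reads in si-control. The reads stood at 535% of si-control (exact 95% interval 305% to 1001%). On the log2(FPKM + 1) scale, where the pseudocount shrinks the difference of a weakly expressed gene, it was 0.83 (SE 0.18; limma adjusted p = 0.0247). The log2 change was 1.99 with a pseudocount of 0.1 FPKM and 2.36 with limma-voom on the reads. TJP3 entered the test only through its si-DLX6 libraries, the 2 that reached 1 FPKM, so it had to differ to be tested at all. The call was kept without the second si-DLX6 library (limma adjusted p = 0.0478) and lost without any other library (limma adjusted p 0.0627 to 0.0788) or with no filter on low values (limma adjusted p = 0.0640).

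Both annotated starts of TJP3 are printed because TJP3 had the largest fold change of the 9 genes and the table does not say which start its reads came from. The strand, window and capitals are as above.
TJP3 start 1 (chr19:3708134-3708433, plus strand): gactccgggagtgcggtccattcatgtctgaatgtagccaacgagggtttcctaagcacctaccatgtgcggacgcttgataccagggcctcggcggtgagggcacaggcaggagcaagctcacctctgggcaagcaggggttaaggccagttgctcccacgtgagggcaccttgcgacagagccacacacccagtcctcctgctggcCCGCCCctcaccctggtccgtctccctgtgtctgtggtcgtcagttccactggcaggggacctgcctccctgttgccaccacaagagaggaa
TJP3 start 2 (chr19:3721487-3721786, plus strand): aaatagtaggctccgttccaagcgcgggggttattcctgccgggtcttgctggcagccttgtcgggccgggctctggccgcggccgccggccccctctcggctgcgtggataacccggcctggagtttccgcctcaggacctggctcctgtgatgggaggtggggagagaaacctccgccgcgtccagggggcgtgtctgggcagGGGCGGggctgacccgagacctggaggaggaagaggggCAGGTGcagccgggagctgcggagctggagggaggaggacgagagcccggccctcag
The first window held 1 GC box at -42. The second held a GC box at -45 and an E-box word at -7. Their observed over expected CpG ratios were 0.41 and 0.67. The E-box word, a sequence bound by SNAI and ZEB family repressors, was also in the first TJP1 window at -88, in the first OCLN window at -33 and in the second OCLN window at -133 and 36.

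Per length, TJP3 stood at 6.602% and 4.50% of the TJP1 level in si-DLX6 libraries, and at 1.43% and 1.63% in si-control libraries. TJP1 was thus the far larger scaffold transcript in each library. The groups did not overlap in the ratio. It is built on TJP3, which entered the test only through its si-DLX6 libraries, so it adds no separate support.

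CGN encodes cingulin, the cytoplasmic plaque protein that links the scaffolds to myosin and to regulators of RHOA. It had 4.51 and 4.67 FPKM in si-DLX6 libraries, against 6.14 and 6.44 FPKM in si-control libraries. It was the single member with both si-DLX6 libraries below both si-control libraries, and both groups were tight. The means were 4.59 ± 0.115 FPKM in si-DLX6 and 6.29 ± 0.215 FPKM in si-control (SD, n = 2 each). The log2 difference of -0.38 did not pass the threshold (SE 0.14; limma adjusted p = 0.103), and it was not called under any of the 11 alternative settings. Its reads stood at 73.1% of si-control (exact 95% interval 65.1% to 82.2%). CGNL1, which encodes the related paracingulin, had means of 2.12 ± 0.1002 FPKM in si-DLX6 and 1.35 ± 0.104 FPKM in si-control (SD, n = 2 each), with a log2 difference of 0.41 that did not pass either (limma adjusted p = 0.132). It was named for its kinship with CGN after its values were seen.

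**Figure D3:**
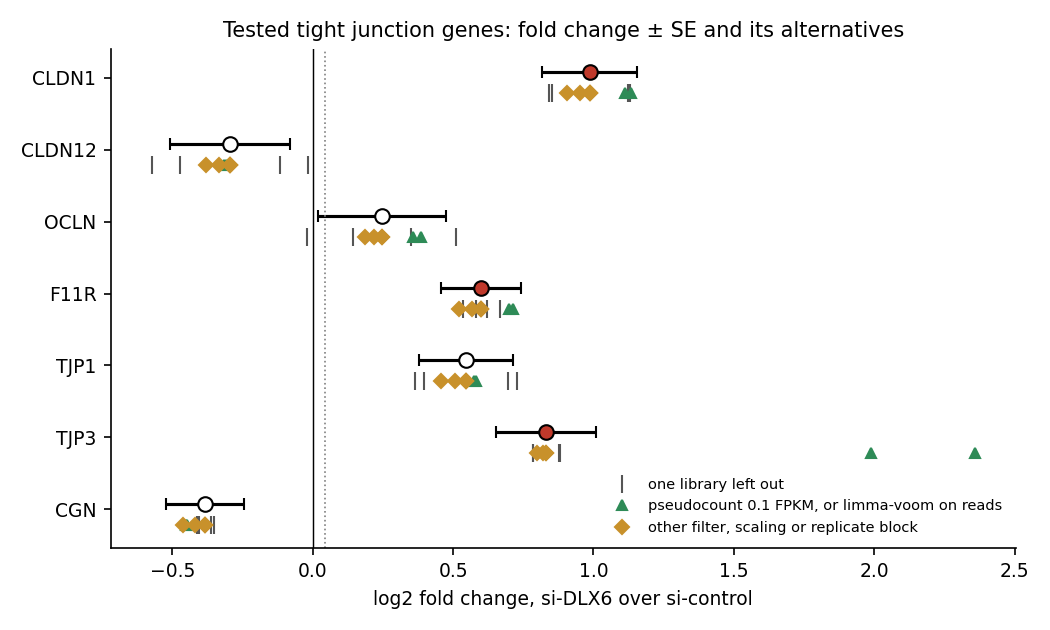
Change of each tested member in si-DLX6 over si-control on the log2(FPKM + 1) scale with its moderated SE (circle and bar, filled where called), above the same value under the alternative settings (small marks); the dotted line is the median of all tested genes, 0.045. CLDN1, TJP3 and F11R passed an adjusted p of 0.05, TJP1, OCLN, CLDN12 and CGN did not, and TJP3 reached 1.99 and 2.36 with the smaller pseudocount and with limma-voom.

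Of the 9 members, 7 were tested, 3 were called higher and 0 lower (limma). The share of all tested genes called higher was 10.2%, and the share called lower was 9.49%. At an unadjusted p under 0.05 limma put 4 members higher and 1 lower, beside 19.8% and 16.4% of all tested genes. Limma-voom called 4 higher and 0 lower, beside 13.9% and 10.7% of all tested genes. In 4 tested members both si-DLX6 libraries lay above both si-control libraries, which 35.1% of all tested genes did, and in 1 both lay below, which 27.9% did. The median log2 difference of the 7 was 0.55, and that of all tested genes was 0.045. These counts include TJP3, which had to differ to enter. The members were also chosen with earlier results of these data known. Among the 6 members at or above 1 FPKM in all 4 libraries, 2 were called higher and the median was 0.40, where 9.45% of 13635 such genes were called higher and their median was 0.03. Without the first or without the second si-control library the count of members called was 1, CLDN1.

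The order of the members by level differed between the groups. In the si-DLX6 libraries TJP1 stood highest by mean, followed by CLDN12 and CLDN1, whose ranges overlapped, and then by F11R, CGN, OCLN and TJP3. In the si-control libraries TJP1 and CLDN12 overlapped at the top, followed by CGN, then by CLDN1 and F11R, which overlapped, and then by OCLN and TJP3. CGN thus stood below CLDN1 and F11R in the si-DLX6 libraries and above them in the si-control libraries. CLDN4 and CLDN2 overlapped at the bottom in both groups. The 9 members summed to 51.9 and 66.0 FPKM in si-DLX6 libraries against 41.5 and 50.5 FPKM in si-control libraries.

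For each member called, the 3 genes closest in pattern were taken from the tested genes matched by identifier to a protein-coding entry. Closeness was the Euclidean distance of centred log2(FPKM + 1) values over the 4 libraries. CLDN1 was closest to OSTM1 (distance 0.026), MAP1B (0.045) and NT5E (0.048). TJP3 was closest to ISG15 (0.013), NPC2 (0.039) and ACOT2 (0.051), the last of which has a near copy, ACOT1. In mean FPKM these 3 rose 1.80-, 1.75- and 1.81-fold and TJP3 5.25-fold, a gap that the pseudocount hides on this scale. F11R was closest to MMP24-AS1 (0.019), RSRC1 (0.025) and LARP6 (0.041). A distance over 4 libraries describes likeness in these libraries and nothing further.

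The other genes of the junction were read from 7 lists, whose counts stand beside the 10.2% higher and 9.49% lower of all tested genes, and in which no call held when limma was run with no filter on low values. Of 20 other claudins, 12 were at 0 in every library and 2 were tested, and 0 were called by limma or by limma-voom, and 0 had an unadjusted limma p under 0.05. CLDN15 differed by 0.30 on the log2 scale (limma adjusted p = 0.177) and CLDN10 by 0.05 (limma adjusted p = 0.875). Of 20 other tight junction proteins, 13 were tested and JAM3 alone was called, with a list median of 0.30. The abundant YBX3, SYMPK and ARHGEF2 had log2 differences of 0.43, 0.01 and 0.25 and were not called.

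The polarity complexes that place the junction had 13 of 17 genes tested, with 3 called higher (10.2% of all tested genes were), 2 lower (9.49% of all) and a median of 0.04. Of the atypical protein kinases C, partners of the PAR complex, PRKCZ had 22.5 and 22.8 FPKM in si-DLX6 libraries against 16.1 and 13.9 FPKM in si-control libraries (log2 difference 0.57, limma adjusted p = 0.0225). PRKCI had 2.62 and 3.46 FPKM in si-DLX6 libraries against 5.93 and 8.55 FPKM in si-control libraries (log2 difference -1.02, limma adjusted p = 0.0218). The pair thus moved in opposite directions, and PRKCI made up 10.4% and 13.1% of their sum in si-DLX6 libraries against 27.0% and 38.2% in si-control libraries. The basolateral genes LLGL1 and LLGL2 rose (log2 differences 0.49 and 0.69, limma adjusted p = 0.0486 and 0.0279), and AMOTL2, of the angiomotin scaffolds, fell by 0.50 (limma adjusted p = 0.0240). PARD3, SCRIB and MPP5 differed by 0.37, -0.23 and -0.08 and were not called. Of the 5 genes called, PRKCI kept its call in 2 of the 4 fits that left out a library, LLGL2 in 0, and the other 3 in 1 each. LLGL1 also lost its call with the pseudocount of 0.1 FPKM and with both other scalings.

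**Figure D4:**
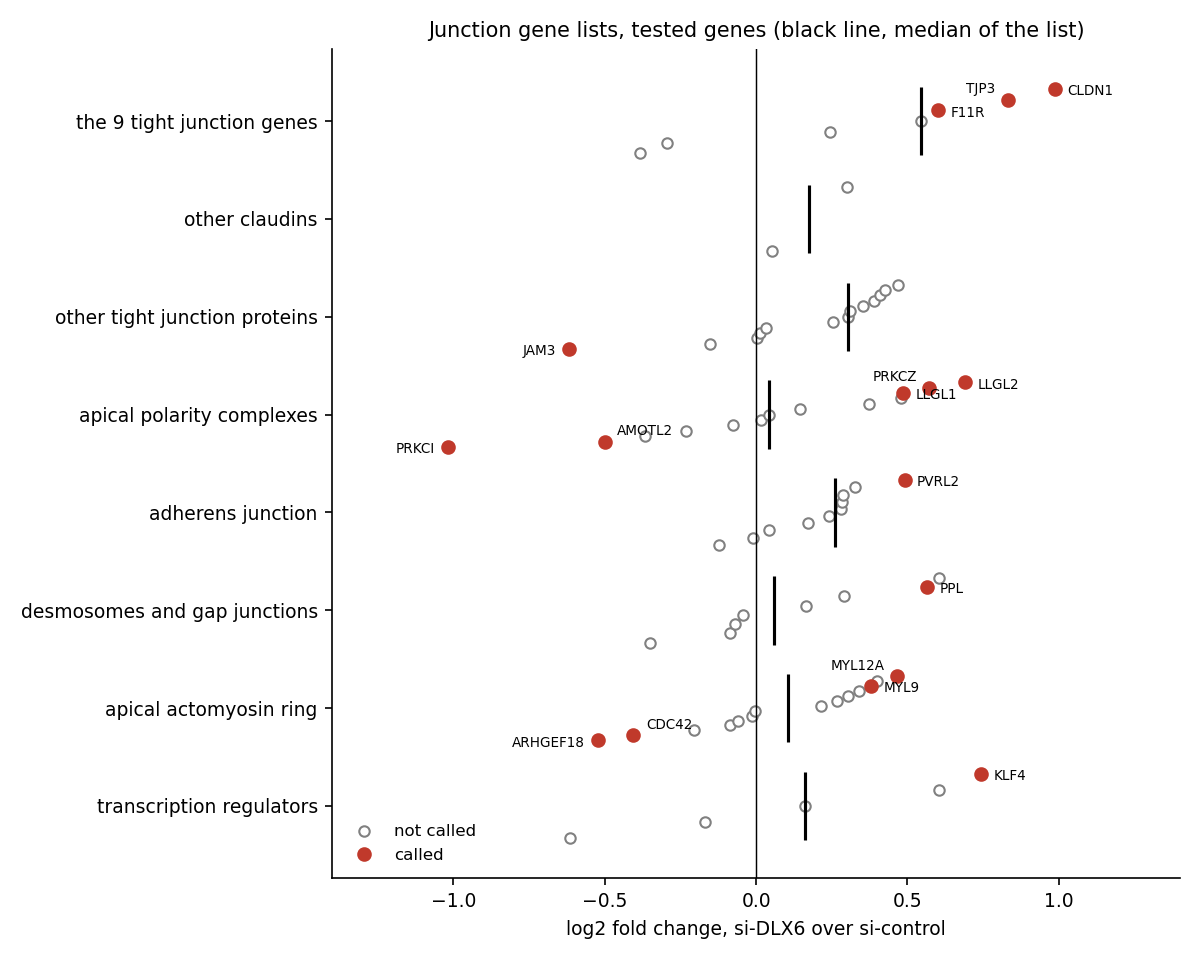
Log2 differences of the tested genes of each junction list, si-DLX6 over si-control, with 1 point per gene (filled where called) and the list median as a black line. The members have a median of 0.55, other tight junction proteins 0.30, adherens junction genes 0.26 and polarity genes 0.04.

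The junctions beneath had 1 call in each list, both higher, which 10.2% of all tested genes were. Of 13 adherens junction genes 10 were tested, with a median of 0.26, and PVRL2, which encodes nectin-2, rose by 0.49 (limma adjusted p = 0.0329), a call lost with both other scalings and kept in 1 of the 4 fits that left out a library. CTNNA1, VCL and CTNNB1 differed by 0.28, 0.29 and 0.24 and were not called. Of 16 desmosome and gap junction genes 8 were tested, with a median of 0.06, and the plakin PPL rose by 0.57 (limma adjusted p = 0.0463). PKP4, DSG2 and GJC1 differed by 0.29, -0.09 and -0.07 and were not called. The PPL call was lost with median-of-ratios scaling and without each library in turn.

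The apical actomyosin ring, to which the scaffolds bind, had 14 of 17 genes tested and a median of 0.10. The myosin light chains MYL12A and MYL9 rose (log2 differences 0.46 and 0.38, limma adjusted p = 0.0258 and 0.0474), while the GTPase CDC42 and the RHOA activator ARHGEF18 fell by 0.41 and 0.52 (limma adjusted p = 0.0397 and 0.0390). Both myosin calls were lost with median-of-ratios scaling and with upper-quartile scaling. MYL9 lost its call also with a pseudocount of 0.1 FPKM (limma adjusted p = 0.0527) and with limma-voom (adjusted p = 0.0583). CDC42 lost its call with upper-quartile scaling, and all 4 calls were lost without each library in turn. MYL12B, RHOA and RAC1 differed by 0.40, -0.21 and 0.21 and were not called.

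Of 15 transcription regulators of epithelial junction genes 5 were tested, with a median of 0.16. KLF4, a factor of epithelial differentiation, had 5.50 and 6.91 FPKM in si-DLX6 libraries against 3.39 and 3.17 FPKM in si-control libraries and rose by 0.74 (limma adjusted p = 0.0270), a call kept in 1 of the 4 fits that left out a library. The repressors ZEB1, TWIST1 and ZEB2 had log2 differences of 0.16, -0.61 and 0.61 and were not called (limma adjusted p = 0.641, 0.0644 and 0.103). TWIST1 was called lower and ZEB2 higher with limma-voom and with the replicate block.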

How the data were processed

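RNA was sequenced from 2 si-DLX6 and 2 si-control libraries, made with a SMARTer mRNA kit per the labels' protocols. The values are FPKM, deposited as 1 table of 51136 rows. For aligner, counter and strand setting, the sources used here name none. The submitters' processing notes name the mouse builds GRCm38 and mm10, although the rows are human genes. Whole reads were recovered from the FPKM steps for 28637 of 28637 genes above 0 (within 0.001 reads), giving totals of 9678221 to 12075285. Counts of the 2 libraries of a group differed beyond sampling error (chi-square over its degrees of freedom 8.12 in si-DLX6, 6.79 in si-control). Genes with at least 1 FPKM in 2 libraries were tested with limma 3.58.1 (R 4.3.3, trend, group only) on log2(FPKM + 1), with Benjamini-Hochberg adjustment over 15504 genes and a threshold of 0.05. The fit was first tested on simulated data. Alternatives were a pseudocount of 0.1 FPKM, no filter, a filter of 5 FPKM, 2 other scalings, limma-voom on the reads, a replicate block and leaving out each library. Intervals are exact, cover counting error only and treat reads as independent. Coordinates come from GENCODE on GRCh38 and promoters from RefSeq on GRCh38.p14. The members and lists were chosen with earlier results of these data known. Genes named by rule were the 9 members, DLX6, every called gene of the other lists, the 3 most abundant uncalled genes of each, and the 3 nearest patterns of each called member. Marker, identity and related family genes are named beside these, those picked after their values were seen being marked as such. 1 gene of the lists is counted but not reported here by name.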

Additional observations from a re-analysis of the deposited data

How the results depend on the processing

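With no filter on low values, limma called 372 of all genes and 0 members and 0 genes in each other list. CLDN1, F11R and TJP3 kept their calls with a pseudocount of 0.1 FPKM, both other scalings and limma-voom. With the filter of 5 FPKM, 2832 of the 9409 genes tested were called. The calls were 2 of 9 other tight junction proteins and 0 of 3 desmosome and gap junction genes. PPL did not pass this filter and was not tested there. Median-of-ratios scaling called 2891 of 15483 genes. It called 0 of 10 adherens junction genes, 0 of 8 desmosome and gap junction genes and 2 of 14 actomyosin genes. Upper-quartile scaling called 2788 of 15491 genes, with 0 of 10 adherens junction genes and 1 of 14 actomyosin genes. Limma-voom called 3822 of 15504 genes. It called 4 of 13 other tight junction proteins, 2 of 8 desmosome and gap junction genes and 3 of 5 transcription regulators. With the replicate block the calls rose to 5119 of the 15504 genes tested, so the list counts are to be read beside that share. They were 4 of 7 members (the 3 and TJP1), 4 of 13 other tight junction proteins and 4 of 10 adherens junction genes. Of desmosome and gap junction genes 3 of 8 were called, and of transcription regulators 3 of 5. Same-numbered libraries deviated together with a correlation of 0.202, but the labels do not pair them. The cause of these changes was not tested.

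Leaving out each library in turn gave 1365 to 1689 calls over all genes, 1 to 2 among the members, 0 to 1 among other tight junction proteins, 0 to 3 among polarity genes, 0 to 1 among adherens junction genes, 0 to 0 among desmosome and gap junction genes and among actomyosin genes, and 0 to 1 among transcription regulators. The lone library left in a group was assumed to vary like the other group. The median log2 difference of the members ranged from 0.36 to 0.67. The OCLN difference ranged from -0.019, without the second si-DLX6 library, to 0.51, without the first. Of the uncalled list genes named, YBX3, PARD3, MYL12B, TWIST1 and ZEB2 were called with both limma-voom and the block, CTNNA1, VCL, CTNNB1 and PKP4 with the block, and CGNL1 with limma-voom. Over 21 genes (the tested members, DLX6 and the called list genes), 140 values kept their direction and side of the threshold, 81 lost the call, 4 gained one and 1 reversed. Depth limits CLDN2, CLDN4 and TJP3, whose reads per library ran from 0 to 41.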

Other observations

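Among the claudins outside the 9 members, 2 had reads in the si-DLX6 libraries and none in si-control. CLDN6, a claudin of embryonic epithelia, had 11 reads over the si-DLX6 libraries against 0 over the si-control libraries, and the exact 95% interval of its read ratio starts at 258% of si-control. CLDN16, a claudin of the renal thick ascending limb, had 10 reads in si-DLX6 against 0 in si-control, with an interval that starts at 231% of si-control. The intervals cover counting error only. More genes were above 0 in the si-DLX6 libraries (24931 and 25315) than in the si-control libraries (24039 and 23520), and the part of this in these counts was not tested. Both genes were picked after their values were seen, for having 0 reads in si-control. That their reads lie higher in si-DLX6 therefore follows from the choice. How many of all low genes had reads in si-DLX6 alone was not counted. CLDN6 and CLDN16 were too low to be tested.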
